A study of Mus musculus with 5 samples.

Results

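The genes described here are 43 mouse Polycomb subunits and histone-modifying enzymes, chosen by name and not by their values. They are 43 of 29267 gene IDs in 5 deposited gene tables, each found by matching its Ensembl ID to the GRCm38 annotation. They fall into 6 groups by role, which are Polycomb repressive complex 2 (PRC2, 7 genes), Polycomb repressive complex 1 (PRC1, 7 genes), histone H3 lysine 9 (H3K9) methyltransferases (5 genes), the other lysine methyltransferases with the COMPASS core (8 genes), lysine demethylases (13 genes) and class I deacetylases (3 genes). All 43 had a mean of at least 1 CPM (counts scaled by TMM to a common library size) over the 5 libraries, as did 13584 genes in all.

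RNA was sequenced from ICR-strain mouse embryonic fibroblasts during reprogramming, in 5 groups with 1 library each. At day 8 there were cells given mastoparan (a peptide of wasp venom), cells given paraquat (a redox-cycling herbicide) and untreated control cells, and at day 4 there were cells expressing CypD (the mitochondrial cyclophilin encoded by Ppif) and cells expressing Flag as the control. The labels give CypD expression as the genotype of all 3 day-8 groups as well, while the series design names it for day 4 alone. Ppif stood at 33.3 CPM with mastoparan, 34.2 with paraquat and 29.2 in the day-8 control, and at 761 with CypD and 44.2 with Flag at day 4, so Ppif was not above the Flag level in any library of day 8. The sources used here name neither the introduced reprogramming factors nor the doses. With 1 library in each group there is no test of any difference, and each interval below is a 95% interval of counting error alone. Fewer cells of a kind and less RNA per cell cannot be told apart in such bulk samples.

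Polycomb proteins keep developmental genes silent. PRC2 writes methylation on H3K27 through its catalytic subunit EZH1 or EZH2, and PRC1 puts ubiquitin on histone H2A and, in its canonical form, binds the PRC2 mark through a CBX protein. H3K9 methyltransferases build repressive chromatin and are known as barriers to reprogramming of fibroblasts, whereas COMPASS enzymes write H3K4 methylation at promoters and enhancers. Most lysine demethylases are JmjC dioxygenases that need iron, oxygen and 2-oxoglutarate, while KDM1A uses FAD, and class I deacetylases take acetyl groups off histones within corepressor complexes.

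Between the days, Ezh1 and Ezh2 moved in opposite directions, and their promoters are shown because Ezh1 had the largest fold of the 43 genes between the days. The motif was chosen after the values were seen. Each sequence is RefSeq's for GRCm38.p6 and runs 5′ to 3′ on the minus strand, from 250 bases before to 20 bases after the start site set for it. Capitals mark the E2F-type motif TTTNNCGC on either strand. For Ezh2 the whole window lies inside the gene as annotated here, whose outer end is at 47595341 on chromosome 6. E2F factors drive genes of the cell cycle.
Ezh1 (chr11:101226444-101226713, minus strand): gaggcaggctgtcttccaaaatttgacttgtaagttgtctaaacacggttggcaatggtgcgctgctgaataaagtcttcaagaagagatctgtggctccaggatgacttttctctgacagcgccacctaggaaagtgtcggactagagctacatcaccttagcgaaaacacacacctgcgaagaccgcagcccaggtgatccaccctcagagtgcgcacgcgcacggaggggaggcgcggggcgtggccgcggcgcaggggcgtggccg
Ezh2 (chr6:47595011-47595280, minus strand): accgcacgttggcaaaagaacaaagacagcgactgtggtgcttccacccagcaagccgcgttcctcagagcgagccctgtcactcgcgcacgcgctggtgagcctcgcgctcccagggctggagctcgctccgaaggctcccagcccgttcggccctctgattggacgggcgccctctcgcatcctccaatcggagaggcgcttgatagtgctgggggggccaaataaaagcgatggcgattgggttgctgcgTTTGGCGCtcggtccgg
The Ezh2 window held 1 motif, which began 3 bases after its start site on the gene's own strand, and the Ezh1 window held none. The whole 300-base windows of the table were searched. Of 33 members with at least 1 promoter sequence, 4 (Ezh2, Suv39h1, Suz12 and Phf19) held the motif, in 4 of their 43 windows (9.30%). Among all 32851 promoter windows 5.17% held it. By day, on scaled counts, it was held by 2 of 15 members lower in each day-8 library (Ezh2 and Suv39h1). It was held by 0 of 5 members higher in each, and by 2 of 13 whose days overlapped (Suz12 and Phf19). A match describes these letters and does not show binding.

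The plot of levels by gene gives all 43 members in all 5 libraries. Per transcript length, in the deposited TPM (each transcript's share of the library after division by length), the most abundant member was Hdac2 at 205 to 264 TPM over the 5 libraries. Ehmt2, which encodes the H3K9 methyltransferase G9a, followed at 135 to 164 TPM, then Hdac1 at 72.6 to 178 and Hdac3 at 95 to 119 TPM. The highest demethylase was Kdm1a, the LSD1 enzyme, at 58.8 to 88.5 TPM. Wdr5 at 50.7 to 79.5 TPM and Ash2l at 54.8 to 67.9 TPM, both core subunits shared by COMPASS complexes, led their group, whose catalytic subunits Kmt2a (2.77 to 4.32 TPM), Kmt2c (0.90 to 4.24 TPM) and Kmt2d (1.81 to 9.38 TPM) were among the lowest members.

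**Figure D1:**
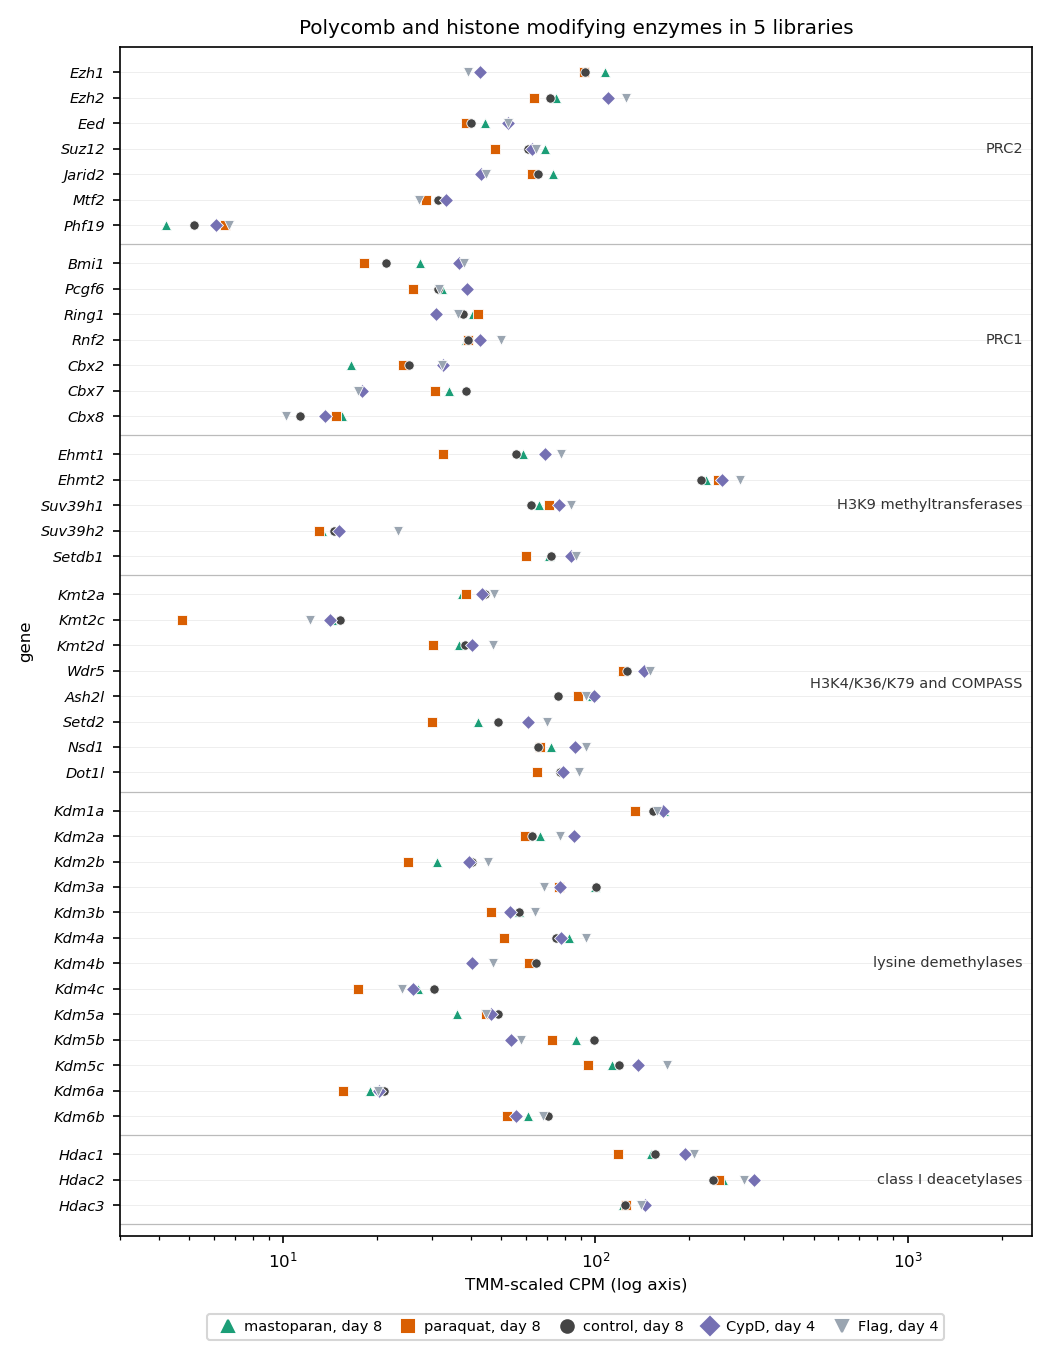
TMM-scaled CPM (log axis) of the 43 members in the 5 libraries, with 1 symbol per library and the 6 role groups separated by lines. Most genes vary little between libraries; Ezh1 and Cbx7 have their 3 day-8 symbols to the right of both day-4 symbols, and Kmt2c has its paraquat symbol far to the left at 4.77 CPM.

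The first comparison sets day 8 of reprogramming against day 4. Its measured pair was the day-8 control over the day-4 Flag library, and the other 3 libraries show whether a difference held for every library of a day. The day, the genotype label and the culture differ together and cannot be told apart. More of the 43 enzymes were lower at day 8 than higher: in 20 of 43 (46.5%) all 3 day-8 libraries lay below both day-4 libraries, where 28.1% of all 13584 genes did so, and in 6 of 43 (14.0%) all 3 lay above, where 28.5% of all genes did. In the 7933 genes that averaged 20 CPM or more, those shares were 34.9% and 26.6%. The libraries of a day are different treatments, so these counts are a description. On deposited TPM 22 members lay below and 4 above, and 22 of the 26 kept their side: Ring1, Kdm5b, Ehmt2 and Suv39h2 overlapped between the days, and Mtf2, Pcgf6, Kdm1a and Kdm2b lay below instead.

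In PRC2 the alternative catalytic subunits differed between the days in opposite directions. Ezh1 stood at 107 CPM with mastoparan, 92.3 with paraquat and 92.8 in control cells at day 8, and at 42.9 with CypD and 39.1 with Flag at day 4. The day-8 control was 2.37-fold higher than Flag (95% counting interval 1.88 to 3.01). Ezh2, the more active methyltransferase of the pair in dividing cells, stood at 74.7 CPM with mastoparan, 63.7 with paraquat and 71.3 in control cells at day 8, and at 110.0 with CypD and 125 with Flag at day 4. It was 1.75 times lower in the day-8 control than in Flag (1.47 to 2.09). The ranges of the days did not overlap for either gene. The ratio of Ezh1 to Ezh2 within a library needs no scaling between libraries. Per effective length it was 0.864 with mastoparan (0.723 to 1.03), 0.869 with paraquat (0.701 to 1.08) and 0.830 in the control (0.694 to 0.995) at day 8. At day 4 it was 0.263 with CypD (0.216 to 0.319) and 0.214 with Flag (0.169 to 0.269), so the intervals of the days lay apart. Ratios within a library were computed for 3 pairs picked after the values were seen.

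The scaffold subunits moved less. Eed, which reads the PRC2 mark and shares 6.82% of its exon length with other genes, had 44.2 CPM with mastoparan, 38.6 with paraquat and 39.9 in control cells at day 8, against 52.4 with CypD and 52.5 with Flag at day 4. The day-8 control was 1.32 times lower than Flag (1.02 to 1.70). Suz12, needed for complex stability, had 69.1 CPM with mastoparan, 47.7 with paraquat and 61.0 in control cells, against 62.8 with CypD and 64.7 with Flag, and the days overlapped. Jarid2, an accessory subunit that helps to bring PRC2 to its targets, went with Ezh1: it had 73.0 CPM with mastoparan, 62.8 with paraquat and 65.5 in control cells at day 8, against 43.1 with CypD and 44.6 with Flag. Its level in the day-8 control was 1.47-fold that in Flag (1.16 to 1.87). The Polycomb-like accessory subunits Mtf2, between 27.2 and 33.3 CPM in all libraries, and Phf19, between 4.21 and 6.71 CPM from 12 to 21 counts, overlapped between the days.

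In PRC1 the chromobox subunits, which read the PRC2 mark, also parted. Cbx7, which lies on the minus strand of chromosome 15 from 79915807 to 79971119 (mm10), had 34.0 CPM with mastoparan, 30.8 with paraquat and 38.6 in control cells at day 8, against 18.0 with CypD and 17.4 with Flag at day 4, and was 2.22-fold higher in the day-8 control than in Flag (1.56 to 3.22). Cbx2 had 16.5 CPM with mastoparan, 24.3 with paraquat and 25.3 in control cells, against 32.4 with CypD and 32.4 with Flag; the days did not overlap, though the interval of the day-8 control against Flag held equal levels. Per effective length Cbx7 exceeded Cbx2 by 2.57 times with mastoparan (1.80 to 3.73), 1.83 with paraquat (1.27 to 2.65) and 1.97 in the control (1.47 to 2.65) at day 8, while at day 4 the ratio was 0.676 with CypD (0.488 to 0.931) and 0.636 with Flag (0.430 to 0.928). Cbx8 had only 26 to 47 counts in a library and no separation by day. Bmi1, the Polycomb ring finger protein that represses the Cdkn2a locus, had 27.4 CPM with mastoparan, 18.2 with paraquat and 21.4 in control cells, against 36.5 with CypD and 37.9 with Flag. It was 1.77 times lower in the day-8 control than in Flag (1.28 to 2.46). Of the E3 ligases, Rnf2 (RING1B) lay between 38.6 and 39.2 CPM at day 8 and was at 42.9 with CypD and 49.7 with Flag, and Ring1 lay between 37.6 and 42.0 CPM at day 8, above 31.0 with CypD and 36.3 with Flag. Both had intervals that held equal levels, as did Pcgf6, the ring finger protein of a variant PRC1, at 26.0 to 38.8 CPM over the 5 libraries.

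**Figure D2:**
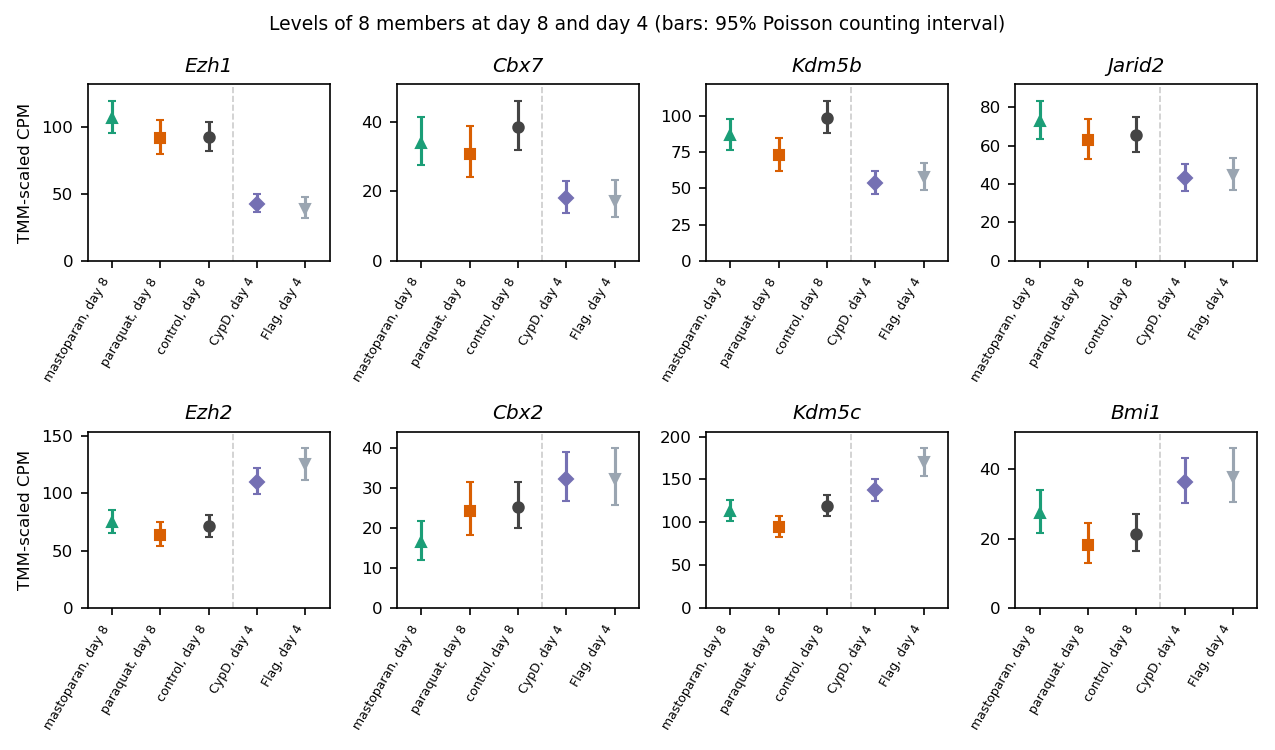
TMM-scaled CPM of 8 members in the 3 day-8 libraries (left of the dashed line) and the 2 day-4 libraries (right), with bars for the 95% Poisson counting interval. Ezh1, Cbx7, Kdm5b and Jarid2 in the upper row lie higher in every library of day 8 on this scale (on deposited TPM Kdm5b overlaps, at 10.8 with paraquat and 11.5 with Flag), and Ezh2, Cbx2, Kdm5c and Bmi1 in the lower row lie lower.

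On scaled counts all 5 H3K9 methyltransferases were lower in every day-8 library than in either day-4 library, where 28.1% of all genes were. On deposited TPM 3 of 5 were, as Ehmt2 (162.5 TPM with paraquat, 158 with CypD) and Suv39h2 (9.54 TPM in the day-8 control, 8.24 with CypD) overlapped. The 5 had a median log2 ratio of -0.42 on counts in the day-8 control over Flag, where the median of all genes was 0.00. Ehmt2 had 227 CPM with mastoparan, 247 with paraquat and 218 in control cells, against 254 with CypD and 290 with Flag, and was 1.33 times lower in the day-8 control than in Flag (1.19 to 1.48). Its partner in the G9a-GLP dimer, Ehmt1, had 58.6 CPM with mastoparan, 32.5 with paraquat and 55.8 in control cells, against 68.9 with CypD and 77.7 with Flag, and was 1.39 times lower (1.13 to 1.72). For the heterochromatin enzyme Suv39h1 the values were 66.0 CPM with mastoparan, 71.1 with paraquat, 62.3 in control cells, 76.4 with CypD and 83.3 with Flag, and the day-8 control was 1.34 times lower than Flag (1.09 to 1.63). Its paralog Suv39h2 had 13.3 CPM with mastoparan, 13.0 with paraquat and 14.6 in control cells, against 15.1 with CypD and 23.3 with Flag, so that the CypD library lay close to day 8. Setdb1, which silences retroelements with TRIM28, had 71.2 CPM with mastoparan, 59.8 with paraquat and 72.0 in control cells, against 83.7 with CypD and 86.8 with Flag, and its interval for the day-8 control over Flag held equal levels. Suv39h1 and Suv39h2 overlap exons of other genes over 14.6% and 9.98% of their exon length, and strand use in counting is not stated, so reads of those genes cannot be told apart from theirs there.

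Of the other methyltransferases and COMPASS subunits, 5 of 8 (62.5%) lay below day 4 in all 3 libraries of day 8 and none lay above. Of all genes 28.1% lay below and 28.5% above. Setd2, the H3K36 trimethylase, had 42.1 CPM with mastoparan, 29.9 with paraquat and 49 in control cells, against 60.8 with CypD and 69.8 with Flag, and the day-8 control was 1.43 times lower than Flag (1.14 to 1.78). Nsd1, which writes H3K36 dimethylation, had 72.3 CPM with mastoparan, 66.7 with paraquat and 65.5 in control cells, against 86.3 with CypD and 93.1 with Flag, and was 1.42 times lower (1.17 to 1.72). Both of these H3K36 enzymes thus parted by day. Wdr5 had 122 CPM with mastoparan, 122 with paraquat and 126 in control cells, against 143 with CypD and 149 with Flag (1.18 times lower in the day-8 control than in Flag, 1.02 to 1.36). Ash2l overlapped between the days, at 97.9 CPM with mastoparan, 87.9 with paraquat and 76.2 in control cells, against 99.0 with CypD and 93.5 with Flag, although its day-8 control was 1.23 times lower than Flag (1.02 to 1.48). Dot1l, the H3K79 methyltransferase, lay between 65.0 and 76.9 CPM at day 8 and between 78.8 and 88.8 at day 4. The H3K4 methyltransferase genes Kmt2a (37.5 to 47.4 CPM over the 5 libraries), Kmt2c (4.77 to 15.2 CPM) and Kmt2d (30.3 to 47.0 CPM) had intervals for the day-8 control over Flag that held equal levels.

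Among the demethylases 3 of 13 (23.1%) had an interval above equal levels in the day-8 control against Flag and 3 (23.1%) had one below, shares near those of all genes (18.2% and 18.8%). Kdm5b, an H3K4 demethylase, had 86.7 CPM with mastoparan, 72.8 with paraquat and 98.9 in control cells at day 8, against 53.6 with CypD and 57.6 with Flag at day 4, and was 1.72-fold higher in the day-8 control than in Flag (1.40 to 2.11). On deposited TPM its days overlapped, with 17.7 TPM with mastoparan, 10.8 with paraquat and 24.4 in control cells, against 13.3 with CypD and 11.5 with Flag. Its X-linked paralog Kdm5c had 113 CPM with mastoparan, 94.4 with paraquat and 119 in control cells, against 137 with CypD and 170.1 with Flag, and was 1.43 times lower (1.24 to 1.65). The ratio of Kdm5b to Kdm5c per effective length was 0.320 with mastoparan, 0.344 with paraquat and 0.482 in the control at day 8, and 0.197 with CypD and 0.149 with Flag at day 4. Among the H3K9 demethylases, Kdm4b was at 60.7 CPM with mastoparan, 61.5 with paraquat and 64.5 in control cells, against 40.3 with CypD and 47.0 with Flag, and was 1.37-fold higher in the day-8 control than in Flag (1.09 to 1.74). Kdm3a, a hypoxia-inducible H3K9 demethylase, was 1.47-fold higher in the day-8 control than in Flag (1.22 to 1.78); it had 100.005 CPM with mastoparan, 76.2 with paraquat and 101 in control cells, against 77.3 with CypD and 68.3 with Flag, so the paraquat library fell inside the day-4 range. The H3K36 demethylase Kdm2a had 66.3 CPM with mastoparan, 59.4 with paraquat and 62.6 in control cells, against 85.1 with CypD and 77.0 with Flag, and was 1.23 times lower in the day-8 control than in Flag (1.00 to 1.51). Kdm4a was 1.25 times lower in the day-8 control than in Flag (1.04 to 1.5), with 82.1 CPM with mastoparan, 51.1 with paraquat and 74.9 in control cells, against 77.6 with CypD and 93.5 with Flag, so the days overlapped. Kdm1a, Kdm2b, Kdm3b, Kdm4c and Kdm5a had intervals that held equal levels and days that overlapped. The H3K27 demethylases Kdm6a, at 15.6 to 21.1 CPM, and Kdm6b, at 52.0 to 70.4 CPM over the 5 libraries, overlapped between the days.

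All 3 class I deacetylases among the members were lower in each day-8 library than in either day-4 library, where 28.1% of all genes were. Hdac2 had 257 CPM with mastoparan, 249.5 with paraquat and 238 in control cells, against 322 with CypD and 299 with Flag, and was 1.26 times lower in the day-8 control than in Flag (1.13 to 1.39). Hdac1 had 150.2 CPM with mastoparan, 118 with paraquat and 155 in control cells, against 194 with CypD and 207 with Flag, and was 1.34 times lower (1.18 to 1.52). Hdac1 shares 31.9% of its 49-base windows with the processed pseudogene Gm10093, and the log2 ratio of the day-8 control over Flag was -0.42 for Hdac1 and -0.41 for both summed. Hdac3, the deacetylase of the NCoR corepressor, lay between 122 and 125 CPM at day 8 and between 140.1 and 144 at day 4, with an interval that held equal levels.

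By fold, 3 of 43 members (Ezh1, Cbx7 and Kdm5b; 6.98%) were at least 1.5-fold higher in the day-8 control than in Flag and 3 (Ezh2, Bmi1 and Suv39h2; 6.98%) at least 1.5-fold lower. Among all genes 19% were at least 1.5-fold higher and 12.8% at least 1.5-fold lower, and in genes averaging 20 CPM or more 9.91% and 9.45%, so the members' shares are not above the background. By counting interval, 6 of 43 (14.0%) lay above and 16 of 43 (37.2%) below equal levels, where 18.2% and 18.8% of all genes did so, and 20.4% and 26.5% in genes averaging 20 CPM or more. Other marks of the cells moved with the day as well. Of all genes 28.1% were lower and 28.5% higher in each day-8 library than in either day-4 library. All 18 genes of an S-phase and mitosis list were lower in each day-8 library, with summed levels of 2435 CPM with mastoparan, 2253 with paraquat and 2317 in control cells, against 3726 with CypD and 3759 with Flag. All 10 genes of an epithelial list were higher, with sums of 839 CPM with mastoparan, 945 with paraquat and 849 in control cells, against 277 with CypD and 290.4 with Flag. Of 12 pluripotency genes, 5 were measured and 4 of these were higher in each day-8 library, with sums of 49.5 CPM with mastoparan, 52.9 with paraquat and 53.8 in control cells, against 24.3 with CypD and 17.0 with Flag; Dppa3 and Lin28a were at 0 counts throughout. All 14 fibroblast genes were measured, 4 (28.6%, near the share of all genes) higher and 8 (57.1%) lower in each day-8 library. The list summed to between 7006 and 7062 CPM at day 8 and between 7385 and 7411 at day 4. The summed level of 6 endothelial genes lay between 49 and 60.7 CPM over all libraries. Of the 2 measured, 1 had an interval above equal levels for mastoparan over control (log2 ratio 2.33). The 7 blood-cell genes summed to 15.8 CPM with mastoparan, 19.1 with paraquat and 20.1 in control cells at day 8. At day 4 they summed to 8.98 CPM with CypD and 7.10 with Flag. Of the 3 measured, 2 (66.7%) were higher in each day-8 library, where 28.5% of all genes were. Cdh5, Emcn, Cd3e and Adgre1 were among the genes at 0 counts throughout. The part of cell division or of the epithelial shift in the members' differences was not tested.

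The second comparison asks which of these genes differ after paraquat. Of the 3 treatment comparisons it had the most members off equal levels: 12 of 43 members (27.9%) had an interval below equal levels and 1 (2.33%) above it, where 9.83% and 11.2% of all genes did so. At least 1.5-fold lower were 5 members (11.6%), namely Kmt2c, Kdm4c, Ehmt1, Setd2 and Kdm2b, against 10.8% of all genes, and none was at least 1.5-fold higher, against 7.84% of all genes. In genes averaging 20 CPM or more, 3.39% were at least 1.5-fold higher and 3.91% lower, and 16.3% had an interval above and 13.1% below equal levels. The median log2 ratio of the 43 members was -0.18, beside -0.03 for all genes.

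All 13 lysine demethylases had a log2 ratio under 0, where 52.9% of all genes did, with a median of -0.40. The interval lay below equal levels for 7 of 13 (53.8%), where it did for 9.83% of all genes. Kdm4c, which removes H3K9 and H3K36 methylation, had 17.3 CPM with paraquat and 30.5 in the control, from 40 and 94 counts, which is 1.76 times lower (1.2 to 2.61). Kdm2b, which brings a variant PRC1 to CpG islands, had 25.1 CPM with paraquat and 40.2 in the control, 1.60 times lower (1.16 to 2.23), and exons of other genes overlap 8.74% of its exon length. Kdm4a had 51.1 CPM with paraquat against 74.9 in the control (1.47 times lower, 1.17 to 1.85). The H3K4 demethylases Kdm5b and Kdm5c were 1.36 (1.12 to 1.65) and 1.26 times lower (1.06 to 1.5), the H3K27 demethylase Kdm6b 1.35 times (1.08 to 1.71) and Kdm3a 1.32 times (1.09 to 1.60). Kdm1a, the one FAD-dependent enzyme of the list, had 134 CPM with paraquat and 152 in the control, and its interval held equal levels. So did those of Kdm2a, Kdm3b, Kdm4b, Kdm5a and Kdm6a, with log2 ratios from -0.42 to -0.07.

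Among the methyltransferases, Kmt2c, the MLL3 enzyme that methylates H3K4 at enhancers (minus strand of chromosome 5 from 25271798 to 25498783), had 11 counts (4.77 CPM) with paraquat and 47 counts (15.2 CPM) in the control. That is 3.20 times lower (1.64 to 6.84), and the other libraries lay between 12.2 and 15.2 CPM. Ehmt1 was 1.72 times lower with paraquat (1.30 to 2.28), while Ehmt2 was 1.13-fold higher (1.01 to 1.27), so the subunits of the G9a-GLP dimer lay on opposite sides of equal levels. Setd2 was 1.64 times lower (1.22 to 2.21). In PRC2, Suz12 was 1.28 times lower with paraquat (1.01 to 1.63), and the other 6 subunits had intervals that held equal levels, as did all 7 of PRC1. Of the deacetylases, Hdac1 was 1.31 times lower (1.13 to 1.53), and Hdac2 and Hdac3 had log2 ratios of 0.07 and 0.00.

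**Figure D3:**
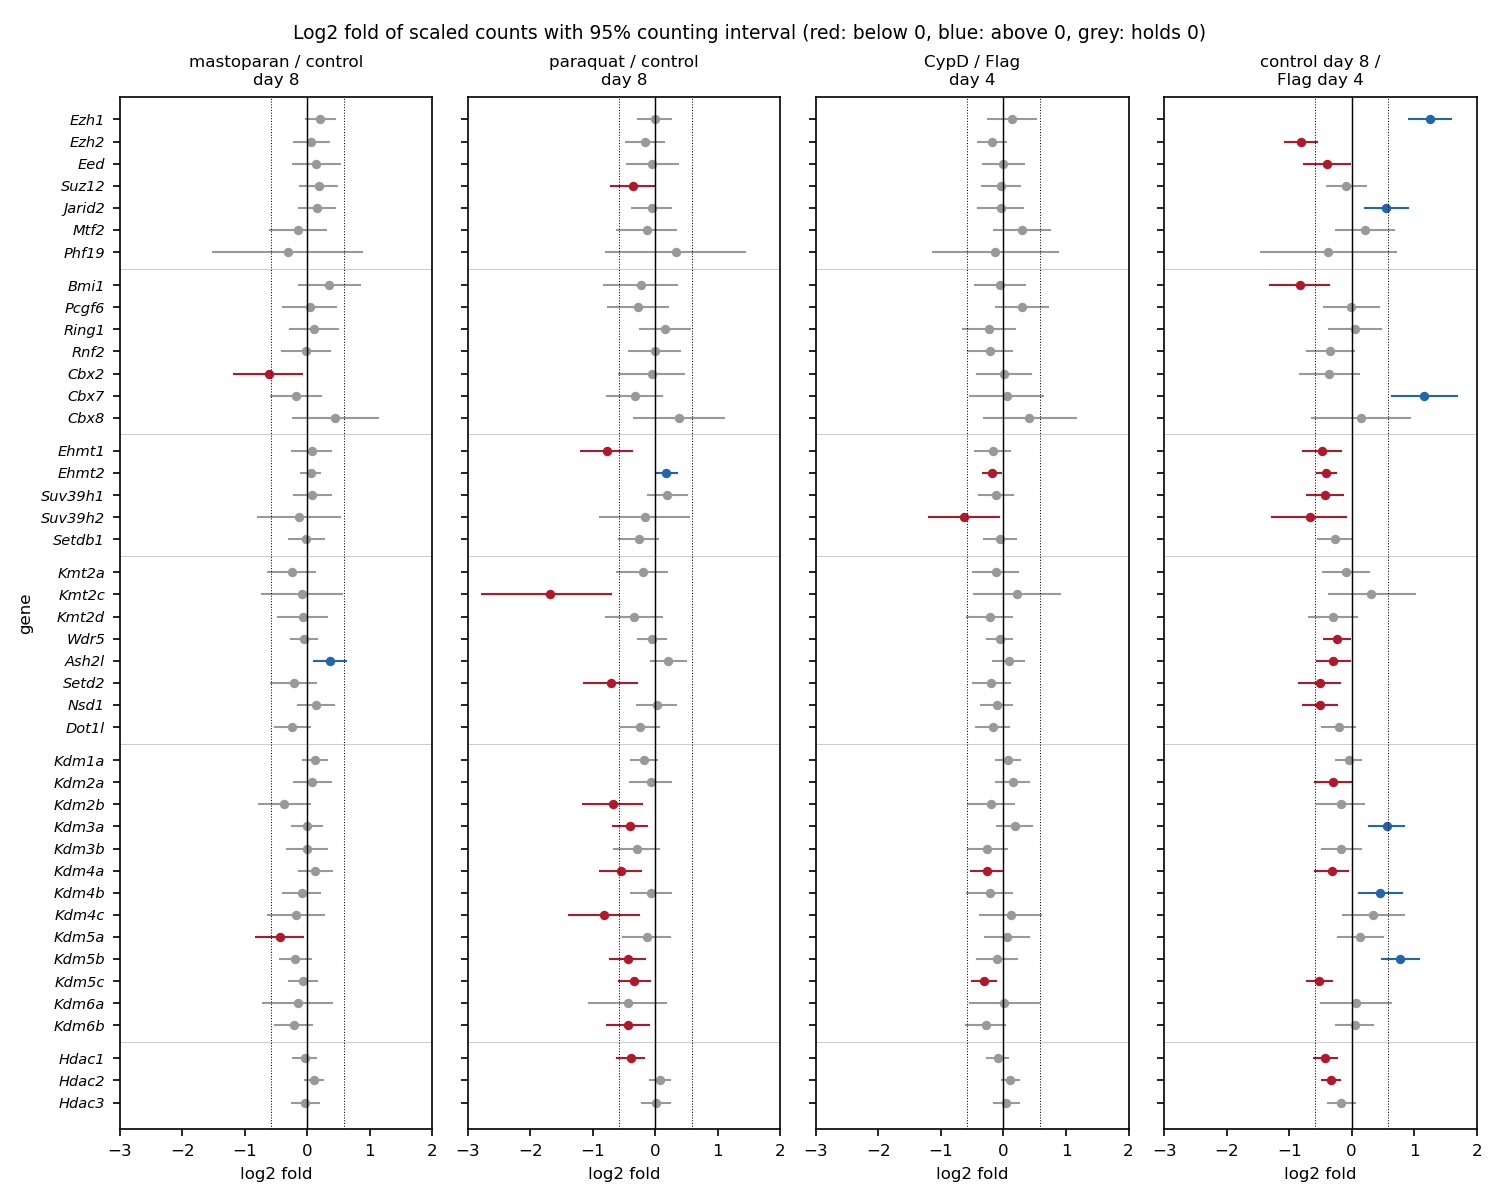
Log2 fold of scaled counts of the 43 members in 4 comparisons, each with its 95% counting interval; dotted lines mark 1.5-fold, red intervals lie below 0, blue above and grey hold 0. Paraquat has 12 red intervals and 1 blue, mastoparan 2 red and 1 blue, CypD 4 red and no blue, and the day-8 control over Flag 16 red and 6 blue.

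Transcript length moved with the paraquat ratios. All genes were split by length into 3 equal classes of 4528. The median log2 ratio of paraquat over control was 0.19 in the shortest class, -0.06 in the middle class and -0.18 in the longest class. The members are long: their median deposited length was 3807 bases against 2441 for all 13584 genes, and 24 of the 43 lay in the longest class. Of the 5 members at least 1.5-fold lower, 4 lay in that class, where 14.5% of all genes were at least 1.5-fold lower. With the median of each length bin subtracted, the median of the 43 members was -0.07, 26 of 43 lay below 0, and Kmt2c (log2 ratio -1.38) and Kdm4c (-0.60) stayed at least 1.5-fold lower. Ehmt1 was then at -0.55, Kdm2b at -0.51 and Setd2 at -0.46. The demethylases then had 10 of 13 below 0, with a median of -0.19. Across the 43 members, which share the same pair of libraries, Pearson's r between log2 length and log2 ratio was -0.38, and across all 13584 genes it was -0.28. For the day-8 control over Flag, the same classes had medians of 0.09, 0.00 and -0.09 from shortest to longest. The members' median there was -0.21, or -0.15 with the length trend removed. On counts 29 of 43 lay below 0, where 49.7% of all genes did, and 29 with the length trend removed. RNA quality of the libraries is not given in the sources used here, and its part was not tested.

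**Figure D4:**
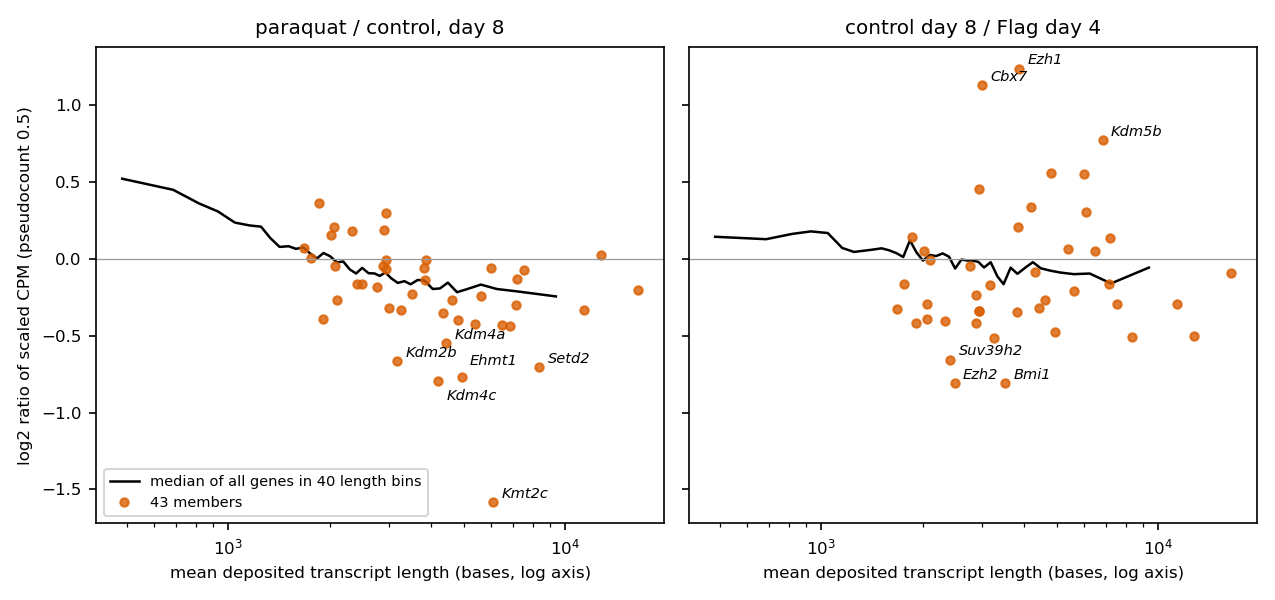
Log2 ratio of scaled CPM (pseudocount of 0.5 CPM) against the mean deposited transcript length (bases, log axis) for paraquat over control (left) and the day-8 control over Flag (right). Orange points are the 43 members and the black line the median of all genes in 40 length bins; on the left the line falls with length and Kmt2c lies far below it, and on the right Ezh1 and Cbx7 lie above.

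The deposited length of a gene is an average over its isoforms as the authors' program estimated them, and it differed between libraries for some members. For Kmt2d, the MLL4 enzyme, it was 8319 bases with mastoparan, 19805 with paraquat and 11929 in the control at day 8, and 8992 with CypD and 7548 with Flag at day 4. Its counts gave a log2 ratio of -0.33 for paraquat over control with an interval that held equal levels, whereas its TPM gave -0.87 relative to the median of all genes. Kdm5b showed the same: its length was 8013 bases with paraquat and 5889 in the control, and its log2 ratio was -0.44 on counts and -0.86 on TPM relative to all genes. For Ehmt2 the length was 1840 bases with paraquat and 2376 in the control, and the log2 ratio 0.18 on counts and 0.55 on TPM relative to all genes. These 3 genes thus differed between counts and TPM, while the lengths of Setd2, Kdm3a, Kdm6b and Suz12 were equal with paraquat and in the control. The median of all genes on TPM was -0.28 for paraquat over control.

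The third comparison, mastoparan over control at day 8, found few differences among these genes. This comparison shares the control library with the paraquat one, so the values of the pair are not independent. An interval below equal levels was found for 2 of 43 (4.65%) and one above for 1 (2.33%), where 3.3% and 4.03% of all genes did so. Cbx2 had 47 counts (16.5 CPM) with mastoparan and 78 counts (25.3 CPM) in the control, 1.53 times lower (1.05 to 2.25), and was the 1 member (2.33%) at least 1.5-fold lower, against 5.76% of all genes. None was at least 1.5-fold higher, against 5.05% of all genes. In genes averaging 20 CPM or more, 0.24% were at least 1.5-fold higher and 0.353% lower, and 5.36% had an interval above and 3.4% below equal levels. Kdm5a, an H3K4 demethylase, had 36.1 CPM with mastoparan and 49 in the control, 1.35 times lower (1.05 to 1.76). Ash2l was 1.28-fold higher, at 97.9 CPM with mastoparan and 76.2 in the control (1.08 to 1.53). Shares of this size are near those of all genes.

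In the fourth comparison, CypD over Flag at day 4, 4 of 43 members (9.30%) had an interval below equal levels and none had one above, where 4.11% and 3.98% of all genes did so. Suv39h2 had 52 counts (15.1 CPM) with CypD and 59 counts (23.3 CPM) with Flag, 1.55 times lower (1.05 to 2.29), and it was the 1 member (2.33%) at least 1.5-fold lower, against 6.21% of all genes. None was at least 1.5-fold higher, against 6.12% of all genes. In genes averaging 20 CPM or more, 0.492% were at least 1.5-fold higher and 0.504% lower, and 5.09% had an interval above and 4.87% below equal levels. Kdm5c was 1.24 times lower with CypD (1.09 to 1.41), Kdm4a 1.21 times (1.01 to 1.44) and Ehmt2 1.14 times (1.03 to 1.26). All 5 H3K9 methyltransferases had a log2 ratio below 0, from -0.61 to -0.05, where 52.2% of all genes did. With the length trend removed 4 of 5 were below 0. The median of the 43 members was -0.06, beside -0.01 for all genes.

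Of 89 other Polycomb and histone-modifying genes listed beside the members (Polycomb, methyltransferase, demethylase, deacetylase and acetyltransferase genes), 88 were measured. In the day-8 control over Flag 13 of them (14.8%) had an interval above and 27 (30.7%) below equal levels, where 18.2% and 18.8% of all genes did. In 40 of 88 (45.5%) all 3 day-8 libraries lay below day 4, where 28.1% of all genes did. Of the 20 genes in the list of other deacetylases, 8 (40%) lay above day 4 in all 3 libraries of day 8 and 3 (15.0%) below. Of all genes 28.5% and 28.1% did. That list also holds Hdac8, of class I, and corepressor genes such as Ncor1. By the naming rule the 4 largest in this comparison were Hdac11, the class IV deacetylase, at 29.5 CPM in the day-8 control and 11.8 in Flag (2.49-fold higher, 1.63 to 3.90), the mitochondrial sirtuin Sirt4 (2.31-fold higher, 1.28 to 4.38), the nuclear sirtuin Sirt1 at 9.41 and 20.5 CPM (2.18 times lower, 1.36 to 3.56) and the H3K4 methyltransferase Setd1b (2.15 times lower, 1.15 to 4.15). With paraquat 4 of the 88 (4.55%) had an interval above and 17 (19.3%) below equal levels, where 11.2% and 9.83% of all genes did. The largest were Setd1b with 4 counts against 17 in the control, the acetyltransferase Ep300 (p300) at 23.0 CPM with paraquat and 41.2 in the control (1.79 times lower, 1.29 to 2.52), Kmt2e (1.69 times lower, 1.24 to 2.33) and Brd1 (1.62 times lower, 1.14 to 2.33). The acetyltransferase list, which also holds the complex subunits Brd1, Brpf1 and Brpf3, had 11 of 13 genes below 0 with paraquat, where 52.9% of all genes were. Its median log2 ratio was -0.37, or -0.21 with the length trend removed. With mastoparan 1 of the 88 (1.14%) had an interval above and 3 (3.41%) below equal levels, where 4.03% and 3.3% of all genes did. The 4 largest were Kdm1b, Ep300 (1.47 times lower, 1.1 to 1.97), Sirt5 and Setd7 (1.41 times lower, 1.09 to 1.83), and the intervals of Kdm1b and Sirt5 held equal levels. With CypD 2 (2.27%) had an interval above and 7 (7.95%) below, where 3.98% and 4.11% of all genes did. The 4 largest were Sirt4 and Hr, whose intervals held equal levels, the Polycomb gene Scmh1 (1.56-fold higher, 1.09 to 2.27) and Phc3 (1.52 times lower, 1.03 to 2.25).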

How the data were processed

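Trizol RNA went into TruSeq libraries, per the labels' protocols. Per the submitters' processing notes Bowtie2 2.2.5 and mm10 were used; no source used here names the gene counter, its annotation or its use of strand. The deposited files hold an expected count and a TPM for each gene, with its average length and effective length (other values, in bases), per the file headers. Total expected counts were 2834186 with mastoparan, 2426015 with paraquat, 3016439 in the day-8 control, 3426702 with CypD and 2497736 with Flag. The intervals cover counting error only. They take reads as independent, which amplified reads are not, so they can be too narrow.

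IDs were matched to GENCODE M21 (28756 of 29267 had a symbol). Expected counts were rounded and scaled by TMM factors over all 5 libraries (edgeR 4.0.16, R 4.3.3). The log2 ratio is of scaled CPM with a pseudocount of 0.5, folds are ratios of scaled counts, and intervals are exact Clopper-Pearson intervals (Poisson for levels). The calls were 1.5-fold on the log2 scale and an interval off equal levels, over genes averaging 1 CPM or more. Python 3.11.15 with scipy 1.17.1, pandas 2.3.3 and numpy 2.4.6 was used. The code was tested on simulated counts. Other settings tried were library totals, DESeq2 1.42.0 and upper-quartile factors, TPM (also less the median of all genes, added after seeing the data), minimums of 0, 5 and 20 CPM, pseudocounts of 0.1 and 2, removal of length and GC trends in 40 bins, leaving out mitochondrial genes, rRNA and the 20 genes of highest level, and leaving out genes sharing at least 20% of their 49-base windows. The length bins hold all tested genes.

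Members, lists, rules and alternatives were chosen with earlier results of these data known. All members are named, with full values for those past 1.5-fold or with an interval off equal levels in any comparison and for the 2 most abundant per length of each group. The level of 1 marker gene is not reported here. Of the wider lists the 4 largest ratios at 5 CPM or more are named.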

Additional observations from a re-analysis of the deposited data

How the results depend on the processing

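No called member changed direction in its log2 ratio: of 541 recomputed ratios of called members, 536 stayed inside their counting interval, 5 left it and 0 changed sign. On deposited TPM the paraquat median of the members was -0.48 (median of all genes -0.28), 17 members were at least 1.5-fold lower with paraquat (22.2% of all genes were), and 2 were past 1.5-fold with mastoparan. Less the median of all genes, a setting chosen after seeing the data, 7 members were at least 1.5-fold lower on TPM with paraquat, against 8.82% of all genes, and 1 with mastoparan, which was Phf19 and not Cbx2. With the length trend removed 2 members were past 1.5-fold with paraquat and 0 with mastoparan; with the length and GC trends removed these counts were 1 and 0, and the paraquat median was -0.047. A minimum of 20 CPM left 0 members past 1.5-fold with CypD, because Suv39h2, at a mean of 15.9 CPM, fell below it. A pseudocount of 2 CPM left 0 with CypD and 0 with mastoparan, where the 1 member in each comparison lies near the fold. In the paraquat comparison, library totals in place of TMM put 37 of 43 members below 0, beside 34, and the median of all genes at -0.13, beside -0.03. Of members whose days did not overlap there were 25 to 27 under the scalings, filters and units tried; on TPM the count was again 26, but 8 of 43 members changed side and those above fell to 4, against 6 on counts. Medians of PRC1, PRC2 and the class I deacetylases lie near 0 with paraquat and changed sign with the scaling or the length trend, those of PRC1, PRC2 and the demethylases did so for day 8 against day 4, those of PRC1 and the H3K9 methyltransferases with mastoparan, and those of PRC1, PRC2 and the class I deacetylases with CypD.

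No paired analysis was possible because each group has 1 library and the labels give no replicate numbers. Leaving out a library gives no value, as it removes its group. Depth limits the low genes most: for the day-8 control over Flag the interval of Cbx8 ran from 0.647 to 1.91 and that of Phf19 from 0.366 to 1.63.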
